A study of Mus musculus with 12 samples.

Results

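The oocyte-expressed Fbxw gene cluster is a group of closely related F-box genes that lie side by side on mouse chromosome 9. The members were 10 genes named by symbol (Fbxw15, Fbxw16, Fbxw18, Fbxw19, Fbxw20, Fbxw21, Fbxw22, Fbxw24, Fbxw26 and Fbxw28). All 10 of the 10 listed symbols were found among the 11298 genes of the expression table, and the rule uses no measured value. The list itself was chosen with earlier results of these data known. The table held 11 other Fbxw genes.

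F-box proteins are the substrate receptors of SCF ubiquitin ligases, in which the adaptor SKP1 links the F-box protein to the cullin CUL1 and a RING protein. The FBXW subfamily carries WD40 repeats, which bind the substrate, while the F-box binds SKP1. The genes of this cluster are known in mouse for transcripts in oocytes, whose stored maternal messenger RNA is degraded as the egg matures and the embryo starts its own transcription. Fbxw15 is known in mouse cells as a receptor for the histone acetyltransferase HBO1. For the other members no substrate is named here.

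RNA was measured by Smart-seq2, a full-length method primed with oligo-dT, in 12 libraries of 10 pooled oocytes or embryos each, all on the C57BL/6 strain background. The 6 groups of 2 libraries were germinal vesicle (GV) oocytes, 1-cell embryos and 2-cell embryos, each with the genotype label Pabpn1l-WT or Pabpn1l-KO (below WT and KO). Pabpn1l encodes a protein that binds poly(A) tails in the oocyte cytoplasm, and the comparison asks what becomes of oocyte transcripts without it. GV oocytes came straight from the animals, whereas embryos had been kept in KSOM medium. The labels give no age, mating scheme or other allele, do not say whether KO names the mother or the embryo, and leave unsaid whether a group's libraries are from different animals. The p-values therefore measure only the spread between these libraries, which may be technical.

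Levels are FPKM (fragments per kilobase of transcript, scaled to the number of mapped fragments), so they can be compared between genes. No value was under 1 FPKM, and 1 is called the floor. A gene at the floor in all libraries compared cannot differ, and a low gene can fall only to the floor. Shares and medians over all genes, given below, include such genes. The FPKM of each embryo library had been multiplied by 1 factor, between 0.116 and 0.552, and those of the 4 oocyte libraries by 1. The basis of the factor is not given in the sources used here. Most results for the members are therefore given as deposited and as FPKM before the factor, with a floor of 8.61 in every library. Values of single genes outside the cluster are as deposited unless stated otherwise. The factor matters most in 1-cell embryos, where it was 0.269 and 0.212 in WT and 0.432 and 0.552 in KO. Over the 6227 genes above the floor in all 4 of these libraries, the median KO minus WT difference was 1.04 on the log2 scale as deposited and 0.01 before the factor. In 2-cell embryos (3949 genes) it was 0.13 and 0.05, and in GV oocytes (9763 genes) it was -0.03. Read counts are not in the table, so depth is unknown. Pabpn1l itself was at 220 and 204 FPKM in WT GV oocytes and at 7.23 and 4.98 FPKM in KO GV oocytes. All 8 defining oocyte markers were found in every GV library, the lowest being Oog1 at 40.9 FPKM or more. The summed level of 7 cumulus and granulosa markers was 83.0 to 88.3 FPKM in WT and 82.1 to 93.8 FPKM in KO GV oocytes, 14.7 to 19.1 and 25.9 to 30.9 FPKM in 1-cell embryos, and 8.11 to 8.67 and 7.22 to 7.65 FPKM in 2-cell embryos. At 2 cells, 5 of these 7 markers in WT and 6 in KO were at the floor in both libraries. Summed levels of 3 sperm and 5 blood markers were at most 73.1 and 20.7 FPKM in GV oocytes and at most 3.74 and 7.02 FPKM in 2-cell embryos. In 1-cell embryos the sperm sums were 3.71 to 4.56 FPKM in WT and 6.40 to 7.02 FPKM in KO, and the blood sums 6.74 to 7.25 and 8.47 to 13.8 FPKM. Each marker adds at least the floor to such a sum. At 2 cells, 2 sperm markers in WT and 3 in KO, and 4 blood markers in WT and 2 in KO, were at the floor in both libraries. Of the listed markers, 7 of 14 cumulus and granulosa, 3 of 8 sperm and 5 of 10 blood markers were among the measured genes. By limma as deposited, 3 of these 7, 1 of 3 and 2 of 5 were called higher in KO 1-cell embryos, where 52.7% of all genes were. Before the factor 0 of these lists were called (0 at an unadjusted p under 0.05), where 4.93% of all genes were called higher. In GV oocytes 1 cumulus and granulosa marker was called higher as deposited, where 66 of all 11298 genes were, and 0 before the factor. At 2 cells 1 cumulus and granulosa marker was called lower and 1 blood marker higher on both scales, and 1 sperm marker lower before the factor. Over all genes 854 were called higher and 1357 lower at that stage as deposited, and 1254 and 2118 before the factor. The part of these cell types in the results was not tested.

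In the RefSeq annotation of GRCm38.p6 the 10 members stood in the order Fbxw21, Fbxw20, Fbxw28, Fbxw22, Fbxw16, Fbxw19, Fbxw15, Fbxw24, Fbxw18 and Fbxw26, from low to high coordinates. The stretch from the first to the last held 17 genes, of which 4 were further Fbxw genes and 3 were small nuclear RNA genes. Of the 4, Fbxw13 and Fbxw14 are in the table, and Fbxw23 and Fbxw25 were not analysed here. The authors' build was mm9, so positions below are those of GRCm38.p6 only.

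Start regions were in the RefSeq promoter table (250 bases before to 50 after the annotated start) for 9 of the 10 members, all on the minus strand. Their aligned bases resembled each other closely: over 36 pairs the share identical, gaps left out, ran from 84.9% to 97.0%, with a median of 90.9%. With gaps counted it ran from 64.7% (Fbxw19 and Fbxw20) to 92.7% (Fbxw24 and Fbxw26). Runs of at least 10 bases held by all 9 were searched for, and 2 were found, each of 12 bases, shown in capitals below. Their presence in each of the 9 follows from that search, and their letters are given as a description. AAATCTTTGGCC began 26 to 71 bases before the annotated start. GACTTAGGCCAC began between 10 bases before and 35 bases after it. Of 27025 genes in that table, searched on both strands, 12 held the former (the 9 members, Fbxw14, Gm40505 and Olfr829), in 13 start regions or 0.0396% of 32851. The latter was held by 11 genes (the 9 members, Fbxw14 and Fbxw25), in 12 start regions or 0.0365%. Printed 5′ to 3′ on the minus strand of GRCm38.p6 are the start regions of the most abundant member (Fbxw24, chr9:109626010-109626309), the member that differed most between KO and WT 1-cell embryos (Fbxw19, chr9:109495805-109496104), the member that fell most from the GV to the 1-cell stage (Fbxw21, chr9:109161973-109162272) and the member that differed least between KO and WT 1-cell embryos (Fbxw26, chr9:109746040-109746339).
Fbxw24: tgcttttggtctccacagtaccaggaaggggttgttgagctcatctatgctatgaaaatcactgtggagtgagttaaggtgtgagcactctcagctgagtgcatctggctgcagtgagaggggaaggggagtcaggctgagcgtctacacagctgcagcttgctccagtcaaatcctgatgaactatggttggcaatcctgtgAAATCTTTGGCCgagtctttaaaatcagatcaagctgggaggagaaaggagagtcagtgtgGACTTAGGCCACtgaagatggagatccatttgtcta
Fbxw19: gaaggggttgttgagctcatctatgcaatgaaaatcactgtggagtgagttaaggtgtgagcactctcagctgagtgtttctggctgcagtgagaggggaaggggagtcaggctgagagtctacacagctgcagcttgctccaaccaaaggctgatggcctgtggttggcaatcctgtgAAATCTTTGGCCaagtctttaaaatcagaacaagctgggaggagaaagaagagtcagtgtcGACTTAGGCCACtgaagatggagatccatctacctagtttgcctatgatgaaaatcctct
Fbxw21: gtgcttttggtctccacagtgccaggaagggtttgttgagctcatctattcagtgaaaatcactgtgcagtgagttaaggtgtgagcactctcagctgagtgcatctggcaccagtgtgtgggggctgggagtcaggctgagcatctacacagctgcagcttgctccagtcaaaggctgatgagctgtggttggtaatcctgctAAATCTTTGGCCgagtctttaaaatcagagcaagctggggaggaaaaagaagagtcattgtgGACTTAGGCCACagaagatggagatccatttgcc
Fbxw26: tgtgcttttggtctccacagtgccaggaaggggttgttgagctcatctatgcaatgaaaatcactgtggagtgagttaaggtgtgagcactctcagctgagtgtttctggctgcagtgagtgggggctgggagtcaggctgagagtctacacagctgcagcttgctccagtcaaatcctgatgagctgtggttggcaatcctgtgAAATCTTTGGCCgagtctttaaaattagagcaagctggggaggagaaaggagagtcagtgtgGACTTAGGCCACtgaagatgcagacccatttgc

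The E-box CAGCTG was in 9 of the 9 start regions and in 16.3% of all start regions of the table. The E-box CAGGTG, the element TAATTG that NOBOX binds and the TATA box TATAAA were in 0 of 9, against 20.2%, 8.0% and 13.6% of all. All were searched on both strands. The 9 regions resemble each other closely, so counts out of 9 are not separate draws, and they were not tested against the shares of all. A match is a description of these letters only.

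The coding sequences were also alike, which bears on how reads are shared out. Over 45 pairs of members in GENCODE M21, 80.2% (Fbxw24 and Fbxw28) to 92.3% (Fbxw22 and Fbxw28) of aligned coding bases were identical, with a median of 84.9%. Coding lengths were 1392 to 1407 bases. Of all 150-base windows, the length of a read, 0% occurred exactly in another gene for 9 members, against 32.2% for Fbxw28. With up to 2 mismatches to another gene of the cluster, 84.2% of the windows of Fbxw28 matched, against 1.71% for Fbxw15, 1.20% for Fbxw24 and 0% for the other 7. The match of Fbxw28 is its neighbour Fbxw14, with 99.1% of coding bases identical. Values of Fbxw28 are therefore uncertain, since its reads could be divided with Fbxw14.

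GV oocytes held large amounts of all 10 transcripts. In WT GV oocytes Fbxw24 stood at 2523 ± 470 FPKM (SD, n = 2), rank 14 among 11298 genes, and Fbxw22, the lowest, at 314 ± 34.4 FPKM, rank 362. Together the members summed to 9134 and 11077 FPKM, or 1.58% and 1.85% of all FPKM in the table. Between these ends came Fbxw15 at 1656 ± 210 (rank 31), Fbxw16 at 1200.4 ± 81.1 (rank 49), Fbxw21 at 1060.2 ± 173 (rank 61) and Fbxw18 at 1007 ± 138 FPKM (rank 66). Lower still were Fbxw19 at 803 ± 107 (rank 92), Fbxw28 at 627 ± 75.1 (rank 142), Fbxw20 at 534 ± 43.7 (rank 185) and Fbxw26 at 380.3 ± 42.7 FPKM (rank 278). In that order the ranges of the 2 libraries overlapped between Fbxw16 and Fbxw21 and between Fbxw21 and Fbxw18, and all other neighbours stood apart. KO GV oocytes had the same order of means, with overlap between Fbxw18 and Fbxw19 alone.

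In pooled samples like these, fewer cells that hold a transcript and less of it per cell cannot be told apart. Priming was on poly(A) tails, whose length was not measured. Fewer copies and shorter tails therefore cannot be told apart either, and below, kept refers to the measured level. In KO GV oocytes the members summed to 11662 and 10729 FPKM. The ratio of KO to WT means was between 1.01 (Fbxw18) and 1.17 (Fbxw15). By limma, 0 of 10 members passed an adjusted p of 0.05 and 0 of 10 an unadjusted p of 0.05, where 1.62% of all genes were called in either direction (0.133% before the factor, with 0 of 10 members as well). For Fbxw15, at 1507 and 1804 FPKM in WT and 1933 and 1936 FPKM in KO, the difference was 0.23 ± 0.22 (log2, SE). With 2 libraries a group, a difference of this size was not detectable.

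**Figure D1:**
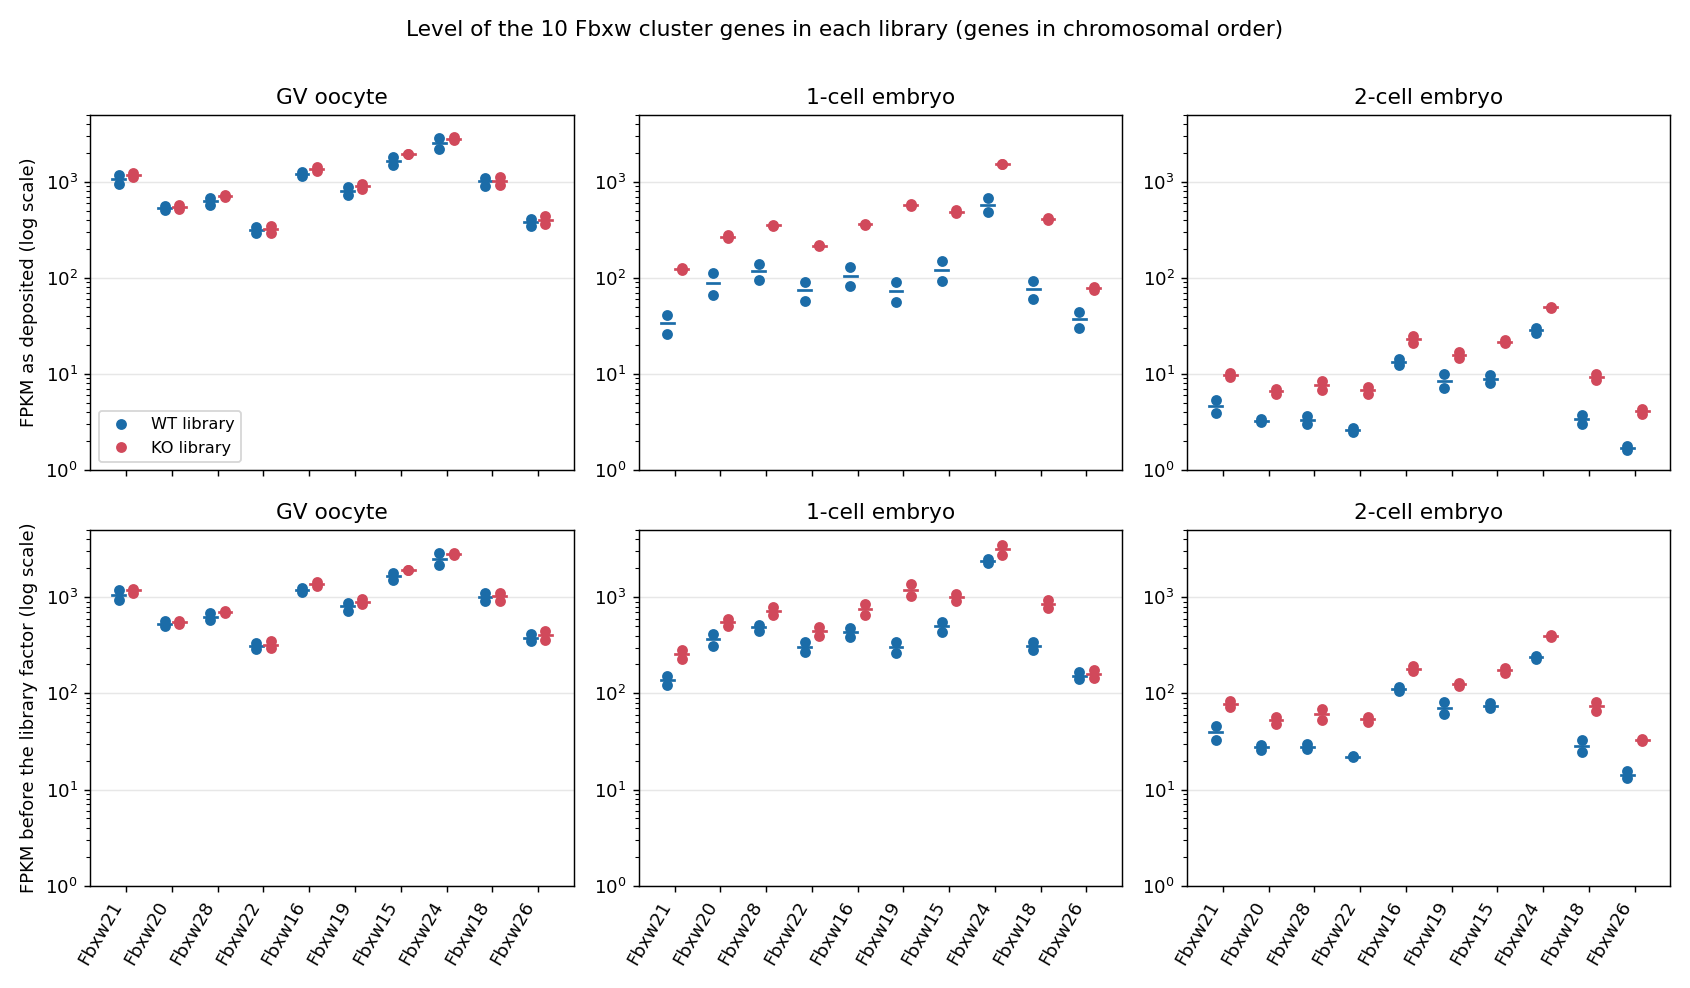
Level of each of the 10 genes in every library, on a log axis, in chromosomal order. Upper panels show FPKM as deposited and lower panels FPKM before the library factor. Blue and red points are WT and KO libraries, and bars are means of 2 libraries. As deposited the levels fall by stage in both genotypes. In WT they go from 314 to 2523 FPKM in GV oocytes to 1.70 to 28.4 FPKM in 2-cell embryos. In the lower row the KO 1-cell means of Fbxw19, Fbxw20, Fbxw22, Fbxw24 and Fbxw28 are not below their KO GV means. The KO points lie above the WT points in 2-cell embryos in both rows.

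From the GV oocyte to the WT 1-cell embryo the members' levels dropped unevenly. Fbxw21 went from 938 and 1182 FPKM to 41.1 and 26.0 FPKM, or 3.16% of its GV mean, and Fbxw22 from 290.1 and 339 FPKM to 91.3 and 57.8 FPKM, or 23.7%. All 10 members were called lower (log2 differences of -4.97 for Fbxw21 to -2.09 for Fbxw22), where 85.8% of all genes were called lower. Over all genes the median log2 difference was -1.49, and over the members it was -3.40. Such a background leaves little to read from the count. Before the factor 7 of 10 members were called lower, against 21.1% of all genes, and the medians were -1.36 for the members and 0.00 for all genes. On both scales low genes can fall only to the floor, which draws the all-gene median towards no change.

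Before the factor 7 members dropped and 3 did not pass the test. Fbxw21, at 152.5 and 122.5 FPKM in WT 1-cell embryos, kept 12.97% of its GV mean, a change of -2.94 ± 0.22 (log2, SE; adjusted p = 9.35e-05, limma). Fbxw15, Fbxw18, Fbxw16, Fbxw19 and Fbxw26 kept 30.02% to 40.3% and were called lower too. Fbxw20 kept 68.3%, with a change of -0.56 ± 0.17 (adjusted p = 0.0441, limma). Not called were Fbxw28 (77.4%, adjusted p = 0.178), Fbxw24 (94.6%, adjusted p = 1.00) and Fbxw22 (97.2%, adjusted p = 1.00) by limma, and the libraries of Fbxw24 and Fbxw22 overlapped between the stages. Fbxw24 stood at 2191 and 2856 FPKM in GV oocytes and 2498 and 2278 FPKM in 1-cell embryos on that scale.

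As deposited, the measured levels of these transcripts fell less by the 1-cell stage in KO than in WT. On that scale KO 1-cell embryos held 10.6% (Fbxw21) to 67.2% (Fbxw22) of the KO GV means, and the members' sum was 39.3% of the KO GV sum against 12.9% in WT. Before the factor the sums were 81.1% in KO and 53.2% in WT. All 10 members were called lower from the GV to the 1-cell stage in KO, where 66.9% of all genes were. Before the factor 4 of 10 were called lower (Fbxw15, Fbxw16, Fbxw21 and Fbxw26), where 16.1% of all genes were. The others had values between -0.27 (Fbxw18) and 0.46 (Fbxw22) on the log2 scale, none called.

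As a ratio of the KO to the WT percent kept, Fbxw19 and Fbxw18 stood furthest apart. Fbxw19 kept 9.18% of its GV mean in WT and 64.4% in KO as deposited, and 37.6% and 133% before the factor. Fbxw18 kept 7.57% and 40.3% as deposited, and 31.1% and 82.9% before the factor. At the other end, Fbxw26 kept 40.3% in WT and 39.9% in KO before the factor.

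**Figure D2:**
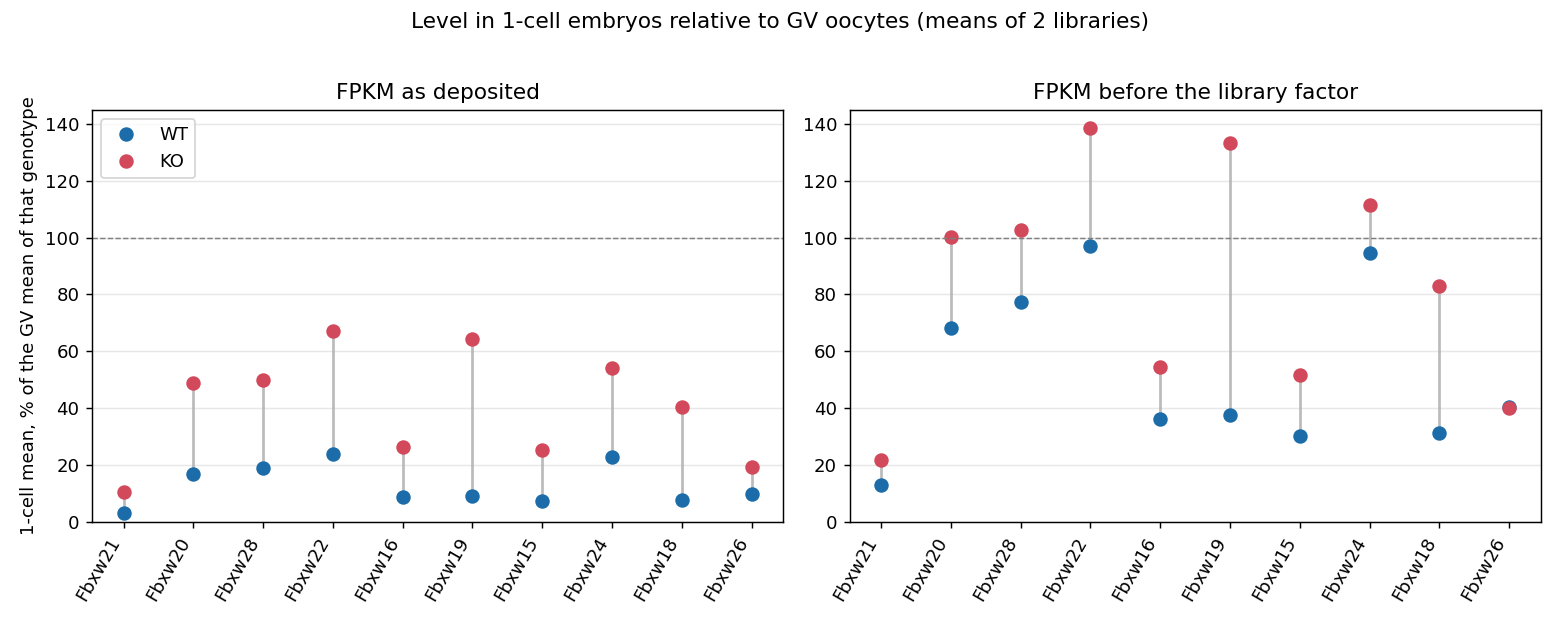
Mean level in 1-cell embryos as a percent of the mean level in GV oocytes of the same genotype, for each gene in chromosomal order (blue WT, red KO, each a ratio of means of 2 libraries). Left, FPKM as deposited. Right, FPKM before the library factor, where the dashed line marks 100%. The gap between genotypes is widest for Fbxw19 on both sides (9.18% and 64.4%, then 37.6% and 133%), and closes for Fbxw26 on the right (40.3% and 39.9%).

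Tested as a difference between the genotypes in the GV to 1-cell change, 10 of 10 members had a smaller fall in KO as deposited, where 38.7% of all genes were called in this direction. The differences ran from 0.99 ± 0.28 (log2, SE) for Fbxw26 to 2.83 ± 0.35 for Fbxw19. Before the factor 1 of 10 was called, where 2.24% of all genes were. That member was Fbxw19, at 1.81 ± 0.30 (adjusted p = 0.0311, limma). Fbxw18, at 1.41 ± 0.29, had an adjusted p of 0.0608 by limma. With the libraries rescaled by median-ratio size factors, or by quantile normalization, 2 of 10 were called higher. Over all 11298 genes, 732 were called higher and 2875 lower with size factors, and 656 higher and 323 lower by quantile normalization.

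In 1-cell embryos themselves, every member was higher in KO than in WT as deposited. Fbxw19 was at 91.3 and 56.2 FPKM in WT and 593 and 564 FPKM in KO, 7.84 times as high. The difference was 2.99 ± 0.25 (log2, SE; adjusted p = 5.48e-05, limma). Fbxw18 was at 92.3 and 60.1 FPKM in WT and 401 and 423 FPKM in KO, 5.41 times as high. Fbxw26 had the smallest ratio, at 44.5 and 30.1 FPKM in WT and 75.7 and 80.4 FPKM in KO, 2.09 times as high. All 10 were called higher, with a median log2 difference of 1.71, where 52.7% of all genes were called higher and the median over all genes was 0.57. The libraries of WT and KO did not overlap for any of the 10, which held in this direction for 64.3% of all genes.

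Before the factor the members ranged from a clear excess to none. Fbxw19 was at 339 and 264 FPKM in WT and 1372 and 1022 FPKM in KO, 3.97 times as high (1.98 ± 0.21, log2, SE; adjusted p = 0.0028, limma). Fbxw18 was at 343 and 283 FPKM in WT and 927 and 767 FPKM in KO, with a difference of 1.43 ± 0.20 (adjusted p = 0.00848, limma). Fbxw15 (1.02 ± 0.16) and Fbxw16 (0.78 ± 0.16) were called as well. This made 4 of 10 called higher, where 4.93% of all genes were, and 8 of 10 had an unadjusted p under 0.05, as did 1772 of all 11298 genes in either direction.

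The remaining 6 members were not called on that scale. Fbxw21 differed by 0.89 ± 0.22 (log2, SE), Fbxw20 by 0.60 ± 0.17, Fbxw28 by 0.57 ± 0.17, Fbxw22 by 0.54 ± 0.16 and Fbxw24 by 0.39 ± 0.18. Fbxw26 was at 165 and 142 FPKM in WT and 175 and 146 FPKM in KO, with a difference of 0.06 ± 0.15 and overlapping libraries. For the other 9 the libraries did not overlap, which held in this direction for 16.9% of all genes. Fewer members were called on this scale without WT replicate 2 or without KO replicate 1. With only the 4 libraries of the stage in the fit, 0 of 10 were called as deposited by limma and 9 of 10 had an unadjusted p under 0.05. The share of all genes called in these smaller fits is not given here. Lost calls of the members and a weaker test therefore cannot be told apart.

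From the 1-cell to the 2-cell stage all 10 transcripts fell steeply in both genotypes and on both scales. In WT the members' sum went from 1565 and 1051 FPKM to 74.1 and 82.4 FPKM as deposited, and from 5809 and 4950 FPKM to 638 and 671 FPKM before the factor. All 10 were called lower, where 29.0% of all genes were as deposited and 14.9% before the factor. The log2 differences ran from -4.76 (Fbxw28) to -2.58 (Fbxw21) as deposited and from -4.08 to -1.79, for the same genes, before the factor. Fbxw21, which had fallen most before the 1-cell stage, fell least after it. In KO all 10 were called lower as well, where 60.7% of all genes were as deposited and 15.4% before the factor. The KO log2 differences were -5.36 (Fbxw28) to -3.54 (Fbxw21) as deposited and -3.55 to -1.70 before the factor. Other oocyte genes fell too: of a list of 45, 40 were called lower in WT and 42 in KO as deposited. Before the factor these counts were 34 and 30.

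Whether the fall in this step was larger or smaller in KO than in WT embryos depended on the scale. As deposited 4 of 10 members were called for a larger fall in KO (Fbxw16, Fbxw18, Fbxw19 and Fbxw21), where 35.7% of all genes were. Before the factor 1 of 10, Fbxw19, was called for a larger fall in KO, at -1.16 ± 0.30 (log2, SE; adjusted p = 0.0337, limma), where 15.8% of all genes were. In the other direction Fbxw26 was called, at 1.08 ± 0.22 (adjusted p = 0.0122, limma), where 5.91% of all genes were. The count as deposited moved with the library left out, down without KO 1-cell replicate 2 and up without WT 1-cell replicate 1. It was also lower without WT 1-cell replicate 2 or without any of the 4 libraries of 2-cell embryos. The share of all genes called in those fits is not given here.

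In 2-cell embryos the members stood at low levels and were higher in KO than in WT on both scales. Fbxw18 was at 3.79 and 3.02 FPKM in WT and 8.60 and 9.90 FPKM in KO, 2.72 times as high (1.22 ± 0.22, log2, SE; adjusted p = 0.00458, limma). Fbxw15 was at 8.15 and 9.70 FPKM in WT and 21.2 and 22.3 FPKM in KO, 2.44 times as high (1.20 ± 0.22; adjusted p = 0.0049, limma). Fbxw24, still the highest, was at 26.7 and 30.2 FPKM in WT and 50.3 and 49.1 FPKM in KO, 1.75 times as high. Fbxw16 had the smallest ratio, at 12.3 and 14.5 FPKM in WT and 24.9 and 20.9 FPKM in KO, 1.71 times as high.

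All 10 members were called higher in KO 2-cell embryos, where 7.56% of all genes were called higher. Their median log2 difference was 0.93, against 0.00 over all genes. Before the factor all 10 were called higher too, where 11.1% of all genes were, with differences from 0.69 ± 0.16 (Fbxw16) to 1.34 ± 0.20 (Fbxw18). The libraries of WT and KO did not overlap for any of the 10 on either scale. That held in this direction for 18.8% of all genes as deposited and 17.4% before the factor. Leaving out any single library of this stage lowered the number of members called on both scales, and more so as deposited. As the share of all genes called in those fits is not given here, lost calls of the members and a weaker test cannot be told apart.

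Against the GV level, the measured levels at 2 cells were small in both genotypes. In WT they were 0.338% (Fbxw18) to 1.13% (Fbxw24) of the GV mean as deposited, and in KO 0.831% (Fbxw21) to 2.103% (Fbxw22). Before the factor they were 2.84% to 9.42% in WT and 6.63% to 16.7% in KO, for the same genes. 

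**Figure D3:**
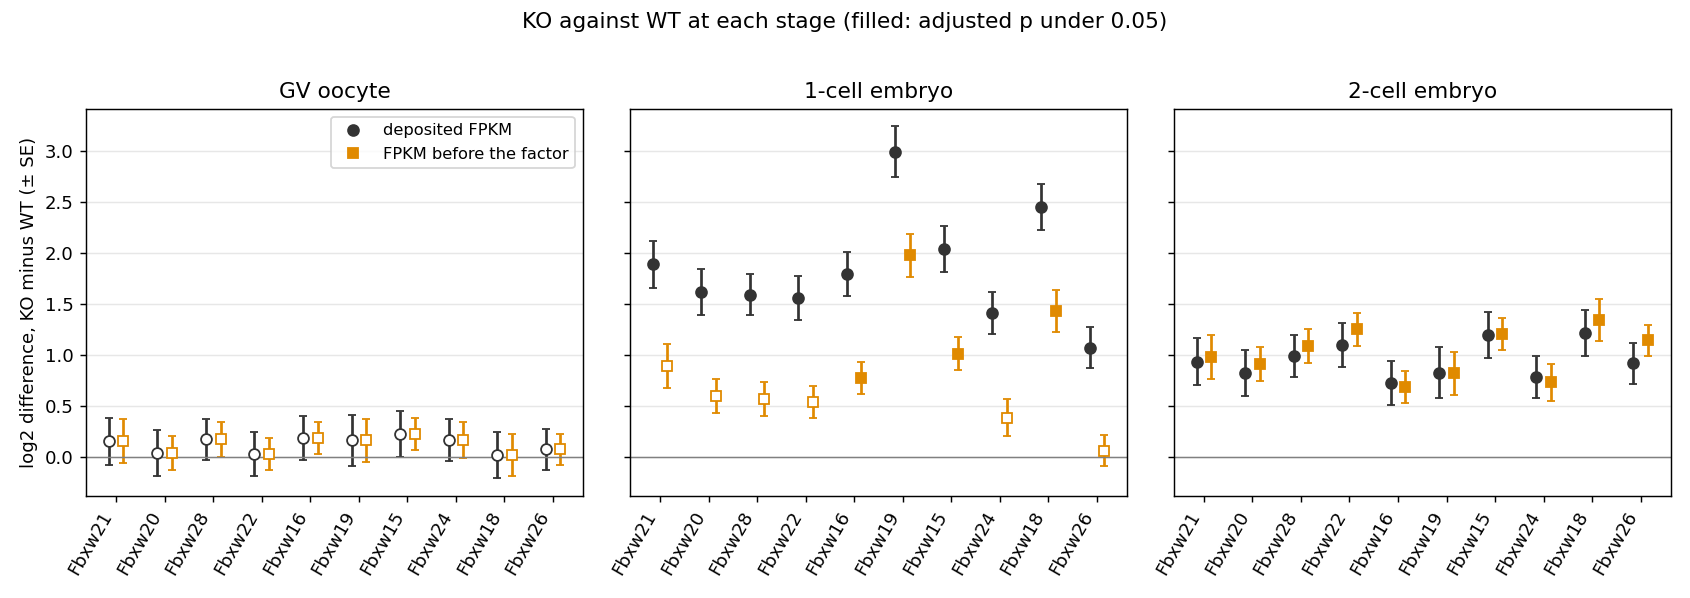
Difference between KO and WT at each stage, on the log2(FPKM + 1) scale, as estimate ± SE from limma, for each gene in chromosomal order. Dark circles are FPKM as deposited and orange squares FPKM before the library factor, and filled symbols passed an adjusted p of 0.05. No symbol is filled in GV oocytes. In 1-cell embryos all 10 circles are filled, from 1.07 to 2.99, but only 4 squares, and in 2-cell embryos all symbols are filled, from 0.73 to 1.22 as deposited and 0.69 to 1.34 before the factor.

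The makeup of the cluster's RNA within a library does not depend on the library factor, since the factor divides out. In GV oocytes of both genotypes Fbxw24 made up 23.99% to 25.8% of the members' sum. In WT 1-cell embryos it made up 43.0% and 46.0%, and in KO 1-cell embryos 34.9% and 34.4%. The WT and KO libraries therefore stood apart, and they did so in 2-cell embryos too, at 36.0% and 36.6% in WT and 32.2% in both KO libraries. Each share of a sum depends on the other shares, and these values were not tested.

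Fbxw19 moved in opposite directions in the 2 genotypes. Its share was 7.96% and 7.93% in WT GV and 8.16% and 7.87% in KO GV oocytes. It was 5.83% and 5.34% in WT 1-cell embryos and 13.6% and 12.7% in KO 1-cell embryos, where Fbxw19 was the second most abundant member. By 2 cells the libraries of the genotypes overlapped, at 9.55% and 12.1% in WT and 10.8% and 9.60% in KO. Fbxw18 had shares of 9.60% and 8.61% in KO GV oocytes and 9.17% and 9.54% in KO 1-cell embryos. In WT 1-cell embryos it had 5.90% and 5.72%, from 9.95% and 9.97% in WT GV oocytes.

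Fbxw21 had much the same course in both genotypes. Its share was 10.3% and 10.7% in WT GV oocytes, 2.63% and 2.47% in WT 1-cell embryos and 7.27% and 4.82% in WT 2-cell embryos. In KO it was 10.6% and 10.5%, then 2.79% and 2.85%, then 6.00% and 6.69%. Fbxw26 differed between the genotypes in 1-cell embryos, at 2.84% and 2.86% in WT and 1.73% and 1.81% in KO.

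**Figure D4:**
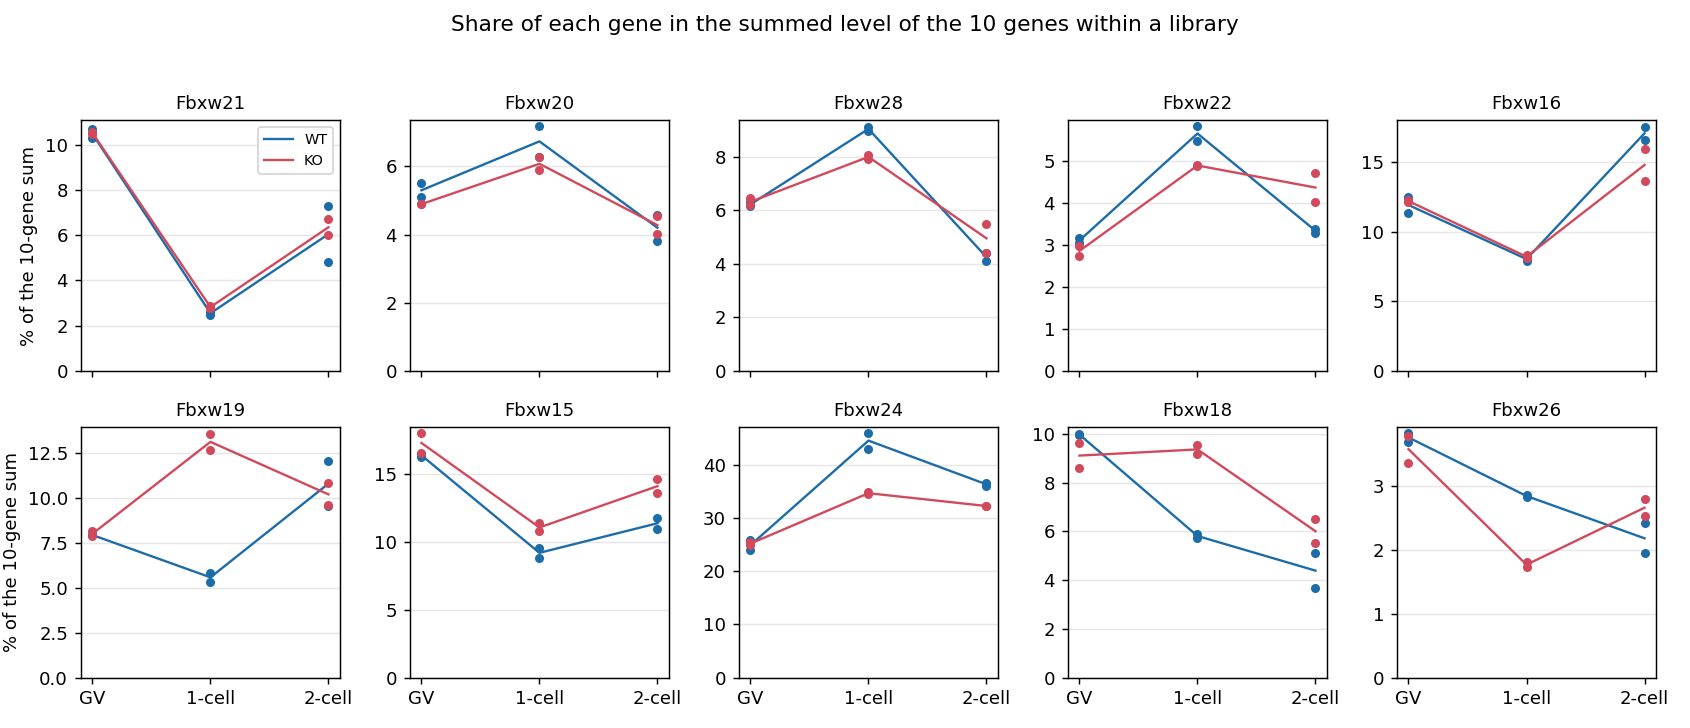
Share of each gene in the summed FPKM of the 10 genes, in percent, within each library, by stage. Points are libraries and lines join the means of 2 libraries (blue WT, red KO), and each panel has its own axis from 0. Fbxw19 parts the genotypes at the 1-cell stage (5.34% and 5.83% in WT, 12.7% and 13.6% in KO), while the lines of Fbxw21 run together.

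Of the neighbours in the table that are not members, Fbxw13 differed from the members' course more than Fbxw14 did. By likeness to the members' mean profile, explained below, Fbxw13 ranked 2130 of 5527 genes as deposited (r = 0.952) and 556 before the factor (r = 0.883), and Fbxw14 ranked 202 and 51. Fbxw13 was at 239.9 and 299 FPKM in WT GV oocytes, 7.24 and 4.07 FPKM in WT 1-cell embryos and 30.9 and 44.5 FPKM in KO 1-cell embryos. It was called higher in KO 1-cell embryos on both scales (2.56 ± 0.27 and 1.70 ± 0.25, log2, SE). In 2-cell embryos its difference of 0.59 ± 0.27 was not called as deposited, with levels of 1.22 and 1.21 FPKM in WT, close to the floor. Before the factor that difference was called, at 0.81 ± 0.25 (adjusted p = 0.0497, limma). Fbxw14 was called higher in KO 1-cell embryos as deposited (1.74 ± 0.20) and not before the factor (0.72 ± 0.17, adjusted p = 0.0556, limma). Fbxw14, the near copy of Fbxw28, was called higher in KO 2-cell embryos at 0.87 ± 0.20, beside 0.99 ± 0.20 for Fbxw28, and at 0.92 ± 0.17 before the factor, beside 1.09 ± 0.17.

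A mean of 5 FPKM or more was reached by 5527 genes that were not members. Among them, those most like the members' mean profile over the 12 libraries were found by Pearson's r. As deposited they were Slc35a1, a sugar nucleotide transporter (r = 0.998), Nlrp5, a maternal-effect gene of the subcortical complex of the egg (0.998), the BMP receptor gene Bmpr1b (0.998), Dicer1, which encodes the small RNA processing enzyme (0.998), and Ggct (0.998). Before the factor they were Nlrp5 (0.995), Senp8, which encodes a NEDD8-specific protease (0.989), Smad2 (0.988), Tdrd12 (0.988) and C87977 (0.988). Only Nlrp5 was among the 5 on both scales, and the libraries share the same steep fall between stages. Between members, r over the 12 libraries was 0.927 to 1.00 in 45 pairs as deposited.

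The partners with which F-box proteins work were measured from a list of 28 genes of the SCF core and its regulators. In GV oocytes 0 of 28 were called by limma, with 0 at an unadjusted p under 0.05. In KO against WT 1-cell embryos 23 were called higher and 0 lower as deposited, and 5 higher and 0 lower before the factor, where 52.7% and 4.93% of all genes were called higher. At 2 cells 8 were called higher in KO and 3 lower as deposited, with a median log2 difference of 0.09, and 10 higher and 4 lower before the factor. In either direction, 19.6% of all genes were called at that stage as deposited and 29.8% before the factor.

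Skp1a, which encodes the adaptor that every F-box protein binds, had the largest excess in KO over WT 2-cell embryos. It was at 76.1 and 61.1 FPKM in WT and 322 and 296 FPKM in KO 2-cell embryos, a difference of 2.16 ± 0.20 (log2, SE; adjusted p = 9.29e-05, limma). From the 1-cell to the 2-cell stage its mean fell in both genotypes, from 586 to 68.6 FPKM in WT and from 1612 to 309 FPKM in KO. Nae1, a subunit of the NEDD8-activating enzyme (1.43 ± 0.23), and Dcun1d1, which promotes cullin neddylation (1.28 ± 0.23), were higher in KO too. The 3 genes lower in KO were Rnf7, an alternative RING subunit (-1.77 ± 0.26), Cops7b of the COP9 signalosome (-0.96 ± 0.23) and the NEDD8-conjugating enzyme gene Ube2f (-0.61 ± 0.18). The mean of Rnf7 went from 1.90 FPKM in 1-cell to 20.6 FPKM in 2-cell embryos in WT, and from 12.4 to 5.27 FPKM in KO. Levels of Cops7b and Ube2f in KO were at or just above the floor, so the size of their differences is limited by it.

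Other F-box genes gave calls in both directions. Of the 12 other Fbxw genes, Btrc included, 1 was called higher in KO 2-cell embryos (Fbxw14) and 2 lower, Fbxw2 (-0.65 ± 0.20, log2, SE) and Fbxw11, which encodes a beta-TrCP protein (-0.64 ± 0.16). Of 46 Fbxl and Fbxo genes, 3 were called higher and 5 lower, and 38 were not called. Over all 11298 genes 854 were called higher and 1357 lower as deposited, and 1254 and 2118 before the factor, so the shares of the Fbxl and Fbxo genes lie near the background. Called higher in KO were Fbxo8 (0.88 ± 0.21), Fbxl5, the iron-sensing receptor (0.72 ± 0.21), and Fbxo28 (0.56 ± 0.17). Furthest below WT in KO were Fbxo15 (-2.36 ± 0.30), Fbxo5, which encodes the APC/C inhibitor EMI1 (-1.52 ± 0.23), and Fbxo16 (-1.22 ± 0.14). In KO, Fbxw2 was at the floor in both libraries, Fbxo5 and Fbxo16 in 1 library each, and Fbxw11 at 1.41 and 1.27 FPKM, so the floor limits the size and the order of these differences. Fbxo15 was at 27.9 and 37.8 FPKM in WT and 7.31 and 4.11 FPKM in KO 2-cell embryos. From the 1-cell to the 2-cell stage its mean went from 5.30 to 32.9 FPKM in WT and from 12.7 to 5.71 FPKM in KO. Of 45 other oocyte genes, 21 rose and 2 fell in KO 2-cell embryos, with a median log2 difference of 0.75. Before the factor these counts were 2 higher and 2 lower for the Fbxw genes, 4 and 11 for the Fbxl and Fbxo genes and 23 and 2 for the oocyte genes.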

How the data were processed

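RNA of 12 mouse libraries was measured by Smart-seq2. Per the submitters' processing notes, the authors used TopHat2 2.1.1, Cufflinks 2.2.1 and the mm9 build, and the deposited values are FPKM per gene. The last entry of the table, 1 in number, is incomplete and was left out, which left 11298 genes. In the deposited FPKM each embryo library is multiplied by a factor that a search of the digits recovered, with 100% of values whole multiples within a tolerance of 0.01. Values were used as deposited, and divided by the factor with a common floor of 8.61. Log2(FPKM + 1) values of all 12 libraries entered 1 limma fit (limma 3.58.1, R 4.3.3, trend on mean level) with 9 contrasts. P-values were adjusted by Benjamini-Hochberg over all genes of a contrast. Calls needed an adjusted p below 0.05. A fold on the log2(FPKM + 1) scale understates the change of low genes. Ratios of levels are ratios of group means.

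Replicates correlated at r of 0.961 to 0.992, with 0% identical values. Depth is unknown, since the table holds no counts. Alternatives were FPKM before the factor, median-ratio size factors, quantile normalization, a pseudocount of 0.1, a mean of at least 5 FPKM, no trend, the replicate number as a block, only the 4 libraries of a stage and leaving out each library. Every member is named. From the SCF, Fbxw and Fbxl and Fbxo lists the 3 called genes furthest above and the 3 furthest below WT in KO 2-cell embryos are named. The 5 genes most like the members are named by Pearson's r with the members' mean standardised profile. The members and lists were chosen with earlier results of these data known. Sequences are from RefSeq (GRCm38.p6) and GENCODE M21, aligned with Biopython 1.88. The statistical steps were tested on simulated data.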

Additional observations from a re-analysis of the deposited data

Results flagged for a closer look

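For 10 members the change from the GV to the 1-cell stage differed between KO and WT by the test of that difference (limma, Benjamini-Hochberg adjusted p = 0.00121 to 0.0256 as deposited). For all genes the share called in the same direction was 38.7% as deposited and 2.24% before the library factor. The KO minus WT values on the log2 scale were 2.83 for Fbxw19, 2.43 for Fbxw18, 1.81 for Fbxw15, 1.73 for Fbxw21, 1.61 for Fbxw16, 1.58 for Fbxw20, 1.53 for Fbxw22, 1.42 for Fbxw28, 1.25 for Fbxw24 and 0.99 for Fbxw26. Before the library factor these values were 1.81, 1.41, 0.79, 0.73, 0.59, 0.56, 0.51, 0.40, 0.22 and -0.02 in the same order, and Fbxw19 alone passed the test.

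For 4 members the change from the 1-cell to the 2-cell stage differed between the genotypes as well, with a larger fall in KO. For all genes the share called in the same direction was 35.7% as deposited and 15.8% before the factor, so this count lies near the background. The values were -2.16 for Fbxw19, -1.23 for Fbxw18, -1.07 for Fbxw16 and -0.96 for Fbxw21 as deposited. Before the factor they were -1.16, -0.09, -0.09 and 0.09, and of these 4 Fbxw19 alone passed the test. Fbxw26 was called in the other direction before the factor, at 1.08, where 5.91% of all genes were.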

How the results depend on the processing

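The 10 members were called lower from the 1-cell to the 2-cell stage in both genotypes under every alternative run. Calls out of 10 members moved as follows, and the cause was not tested. For KO against WT 1-cell embryos, 557 of all 11298 genes were called higher and 175 lower before the factor. The all-gene counts were 1445 and 1856 by quantile normalization, and 1178 and 4338 with size factors. Of the members, 4 were called before the factor, 4 by quantile normalization and 7 with size factors. With only the 4 libraries of the stage 0 members were called (9 at an unadjusted p under 0.05). Leaving out a library on FPKM before the factor, chosen after seeing the data, kept or lowered the member count of that scale. For KO against WT 2-cell embryos, 4 were called with only the 4 libraries of the stage (10 at an unadjusted p under 0.05), and leaving out a library gave 3 to 4. From the GV to the 1-cell stage in WT, 7 members were called lower before the factor and 7 with size factors. By quantile normalization 6 were called lower and Fbxw22 higher. Over all 11298 genes, 2383 were called lower before the factor, 3322 with size factors and 2690 by quantile normalization. Higher calls were 979, 4491 and 3775. From the GV to the 1-cell stage in KO, 4 members were called before the factor, 4 with size factors and 6 by quantile normalization (2 higher). All-gene counts in KO were 1823 lower and 772 higher before the factor, and 3291 and 2481 with size factors. By quantile normalization they were 2250 and 2610. For the difference between genotypes in that change the member counts were 1, 2 and 2. Of all genes, 253, 732 and 656 were called higher and 57, 2875 and 323 lower. Member counts for the difference in the 1-cell to 2-cell change were 2, 2 and 5 (4 higher by quantile normalization). Here 668, 3353 and 3550 of all genes were called higher and 1785, 1886 and 2211 lower. The member counts also moved with the library left out. Shares of all genes called with fewer libraries are not given here.

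Single genes changed sign as follows (log2). From the GV to the 1-cell stage in KO, Fbxw19, Fbxw20, Fbxw22, Fbxw24 and Fbxw28 were at 0.40, 0.00042, 0.46, 0.15 and 0.028 before the factor. Fbxw19, Fbxw22 and Fbxw24 were at 0.32, 0.38 and 0.070 with size factors, and Fbxw19, Fbxw20, Fbxw22 and Fbxw28 at 0.49, 0.26, 0.76 and 0.26 by quantile normalization. In WT, Fbxw22 and Fbxw28 were at 0.44 and 0.10 by quantile normalization. For KO against WT 1-cell embryos Fbxw26 was at -0.19 by quantile normalization, at -0.068 (without KO replicate 1), -0.047 (without WT replicate 2) and up to 0.20 without a library before the factor, and at 0.80 to 1.35 without a library as deposited. For KO against WT GV oocytes, Fbxw18, Fbxw20 and Fbxw22 were at -0.027, -0.020 and -0.024 by quantile normalization. Without a library, Fbxw18 ranged from -0.12 to 0.16, Fbxw20 from -0.044 to 0.12, Fbxw21 from -0.0077 to 0.33, Fbxw22 from -0.086 to 0.15, Fbxw24 from -0.020 to 0.36 and Fbxw26 from -0.066 to 0.22.

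The genotype difference of Fbxw26 in the GV to 1-cell change was -0.015 before the factor, -0.085 with size factors and -0.22 by quantile normalization. In the 1-cell to 2-cell change, Fbxw15, Fbxw20, Fbxw21, Fbxw22, Fbxw24, Fbxw26 and Fbxw28 were at 0.19, 0.31, 0.095, 0.71, 0.34, 1.08 and 0.52 before the factor and at 0.23, 0.33, 0.13, 0.71, 0.40, 1.05 and 0.53 with size factors. By quantile normalization they were at 0.50, 0.77, 0.52, 1.17, 0.46, 1.62 and 1.03, with Fbxw16 at 0.12 and Fbxw18 at 0.34. Fbxw26 was at 0.13 with a pseudocount of 0.1 and between -0.43 and 0.12 without a library.

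Replicate numbers are shared between groups but the labels tie them to no animal or day. The deviations of same-numbered WT and KO libraries correlated at 0.25 in GV oocytes, 0.27 in 1-cell and -0.33 in 2-cell embryos, so they were not taken as pairs. With the replicate block, 10 members were called in KO against WT 1-cell embryos, 8 in 2-cell embryos and 0 in GV oocytes. The share of all genes called in that fit is not given here. With 2 libraries a group and depth unknown, small differences were not detectable.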
